A study of Mus musculus with 2 samples.

Results

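Endothelial genes, the genes by which the cells lining blood and lymph vessels are recognized, were examined in mouse fetal thymic stroma grown in 2 kinds of culture. The set holds 49 genes, chosen by name for their known place in endothelial cells, with earlier results of these data known. They are represented by 88 of the 41174 probes other than controls on an Agilent whole mouse genome array, which name 19505 genes in all. Thymic lobes of C57BL/6 fetuses were kept as organ cultures with 1.35 mM deoxyguanosine, which depletes dividing lymphoid cells, for 8 days (E14.5 fetuses) or 9 days (E15.5 fetuses), and were then dispersed with enzymes. The dispersed cells were cultured for 72 h either in reaggregation thymus organ culture (RTOC), in which they rebuild a solid tissue on a membrane, or in 2D culture on a flat dish. One array compared both cultures of E14.5 cells and the other both cultures of E15.5 cells, in 2 independent experiments, so each culture has n = 2. All 4 RNAs thus came from deoxyguanosine-treated, dispersed stroma, and no uncultured thymus or sorted endothelial cell was among them. RTOC RNA carried Cy5 and 2D RNA carried Cy3 on both arrays, so dye and culture cannot be told apart, nor can stage, days of organ culture and array.

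Endothelial cells hold each other through VE-cadherin and claudin 5, sense vascular endothelial growth factors (VEGF) and angiopoietins through receptor tyrosine kinases, and depend on transcription factors of the ETS, SoxF and TAL1 groups for their identity. In the thymus the vessels bring in the progenitors of T cells, which leave the blood by way of adhesion molecules on the endothelium, and they let mature T cells out again. Some of the genes are read in other cells too, such as Icam1 and Vcam1 in stromal and epithelial cells, and Cd34, Tal1 and Lmo2 in blood progenitors.

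Because ETS factors are members themselves (Erg, Fli1 and Ets1), the 250 bases upstream of each annotated start were searched for ETS letters. A promoter entry of RefSeq on the assembly GRCm38.p6 was matched for 26 of the 49 members. Those of the other 23 (Acvrl1, Angpt2, Aplnr, Bcl6b, Cdh5, Esam, Ets1, Fli1, Icam2, Lmo2, Lyve1, Mmrn2, Nos3, Pecam1, Plvap, Ptprb, Ramp2, Sox17, Sox18, Sox7, Tcf15, Vcam1 and Vwf) were not used here. The sequences shown belong to members whose array signal was higher in RTOC. Capitals mark AGGAAG or its complement CTTCCT, and the promoter of Cldn5 is shown as one that holds neither. They are, 5′ to 3′ on the strand of the gene, Emcn (chr3:137340828-137341077, plus strand), Robo4 (chr9:37401722-37401971, plus strand), Egfl7 (chr2:26580833-26581082, plus strand, 1 of 3 annotated starts), Tie1 (chr4:118489850-118490099, minus strand), Erg (chr16:95459349-95459598, minus strand, 1 of 3 annotated starts) and Cldn5 (chr16:18776597-18776846, plus strand).
Emcn: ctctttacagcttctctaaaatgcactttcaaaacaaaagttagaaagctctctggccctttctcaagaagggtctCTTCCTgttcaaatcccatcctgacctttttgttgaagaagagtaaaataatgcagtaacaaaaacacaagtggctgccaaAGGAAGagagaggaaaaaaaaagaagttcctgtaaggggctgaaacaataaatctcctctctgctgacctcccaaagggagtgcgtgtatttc
Robo4: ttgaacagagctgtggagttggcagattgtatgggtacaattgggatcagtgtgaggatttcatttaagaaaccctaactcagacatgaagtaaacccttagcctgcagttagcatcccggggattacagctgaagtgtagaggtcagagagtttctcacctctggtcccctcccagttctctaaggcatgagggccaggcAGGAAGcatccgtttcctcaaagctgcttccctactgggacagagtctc
Egfl7: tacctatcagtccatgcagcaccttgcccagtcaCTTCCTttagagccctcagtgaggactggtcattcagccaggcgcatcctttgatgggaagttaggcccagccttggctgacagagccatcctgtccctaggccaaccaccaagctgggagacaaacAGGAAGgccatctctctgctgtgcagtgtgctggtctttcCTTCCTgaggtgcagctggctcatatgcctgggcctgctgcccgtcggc
Tie1: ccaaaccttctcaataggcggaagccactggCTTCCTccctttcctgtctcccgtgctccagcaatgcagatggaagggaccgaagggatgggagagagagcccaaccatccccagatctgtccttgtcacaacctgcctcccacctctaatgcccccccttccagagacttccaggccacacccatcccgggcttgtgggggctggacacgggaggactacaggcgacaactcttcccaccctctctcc
Erg: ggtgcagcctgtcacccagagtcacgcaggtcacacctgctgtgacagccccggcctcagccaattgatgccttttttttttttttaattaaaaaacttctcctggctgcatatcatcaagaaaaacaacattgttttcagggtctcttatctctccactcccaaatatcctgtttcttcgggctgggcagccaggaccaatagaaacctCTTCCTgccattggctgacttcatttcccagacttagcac
Cldn5: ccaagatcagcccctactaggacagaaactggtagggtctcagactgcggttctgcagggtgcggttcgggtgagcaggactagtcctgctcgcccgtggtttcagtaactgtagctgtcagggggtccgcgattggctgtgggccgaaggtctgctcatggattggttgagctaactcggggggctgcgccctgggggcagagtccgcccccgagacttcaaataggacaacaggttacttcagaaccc

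On either strand, AGGAAG stood in a promoter of 15 of the 26 members (57.7%) and of 32.3% of 27025 genes. These 15 were Apln, Cd34, Egfl7, Emcn, Eng, Erg, Flt1, Gpr116, Nrp1, Robo4, Sele, Selp, Stab1, Stab2 and Tie1. For Erg and Egfl7 the start shown above is that with the most matches. The other Erg starts held none. The Egfl7 start at chr2:26583615-26583864 held 1 match and that at chr2:26586386-26586635 none. Counted per promoter, the share was 47.1% of 34 for the members and 29.5% for all. The longer ETS motif CCGGAAG, which cannot share its core with the first, was found in 1 member, Lyl1 (3.85%), against 7.83% of all genes. Of the other motifs searched ACAAAG (SOX) stood in 19.2% of members and 18.6% of all genes and ACAATG (SOX) in 7.69% and 12.2%. AGATAA, known from the sites of GATA factors, stood in 7.69% and 11.4%, and CAGATG (the E-box of TAL1) in 19.2% and 16.3%. Of the 11 members with a promoter whose signal was higher in RTOC, 7 held AGGAAG. The rest of the 15 that held it were not called higher, namely Apln, Eng, Flt1, Gpr116, Nrp1, Sele, Selp and Stab2. No link between the motif and the ratio is read from this. A match of letters is a description and no evidence of binding.

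The values below are processed spot intensities after quantile normalization over the 4 channels, given as signals, and a ratio is the signal in RTOC over that in 2D culture. Levels are compared only within a probe. The summed signals of lists are a description and follow the brightest probes of a list. A probe counts as detected where Feature Extraction marked it well above background, which held for 53.1% (E14.5) and 53.5% (E15.5) of probes in 2D culture and for 56.3% and 60.9% in RTOC. The lowest signal so marked was 81.1 and 76.5 in 2D culture and 59.2 and 38.7 in RTOC. The mark was thus harder to reach in the 2D channel, and a gene not detected there need not be absent. The fit with limma, two-sided, tested 23685 probes at a Benjamini-Hochberg adjusted p of 0.05. It has 1 residual degree of freedom, so the p-values lean on the spread of the other probes.

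The 3 genes that define the set were found in RTOC on both arrays, and 2 of them were not found in 2D culture. Pecam1, which encodes the adhesion molecule CD31, read 242 and 341 in RTOC (E14.5, then E15.5, as throughout) and 37.7 and 83.9 in 2D culture, where it was not well above background. The 83.9 exceeded the lowest detected signal of other probes in that channel, 76.5. A second Pecam1 probe was detected in neither culture, with signals from 13.8 to 14.1. Cdh5, the gene of VE-cadherin, read 2057 and 3146 in RTOC and 23.0 and 42.7 in 2D culture, again not well above background. Emcn, the gene of the sialomucin endomucin, was detected in all channels, at 2926 and 4807 in RTOC and 326 and 201 in 2D culture. The RNA is from mixed cells, so fewer endothelial cells and less RNA per endothelial cell cannot be told apart in any of these values.

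Sorted by detection, 28 of the 49 members (57.1%) were detected in all 4 channels, against 61.9% of all genes. A further 11 (22.4%) were detected in RTOC on both arrays and in 2D culture on neither, a class that held 3.16% of all genes. These were Pecam1, Cdh5, Tek, Tie1, Sox7, Sox17, Erg, Bcl6b, Tal1, Tcf15 and Nos3. Cldn5 and Sox18 were detected in RTOC on both arrays and in 2D culture on the E15.5 array alone. Selp was detected in 2D culture on both arrays and in RTOC on 1. Gpr116, Vwf and Acvrl1 were detected on 1 array in RTOC and never in 2D culture, and Flt4 was detected in both cultures of E15.5 cells but in neither of E14.5 cells. Lyve1, Mmrn1 and Sele were detected in neither culture. With the looser flag of Feature Extraction, positive and significant, 3 members in place of 11 were detected in RTOC only. The share of all genes in that class by the looser flag is not given here, so no excess is read from these 3.

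**Figure D1:**
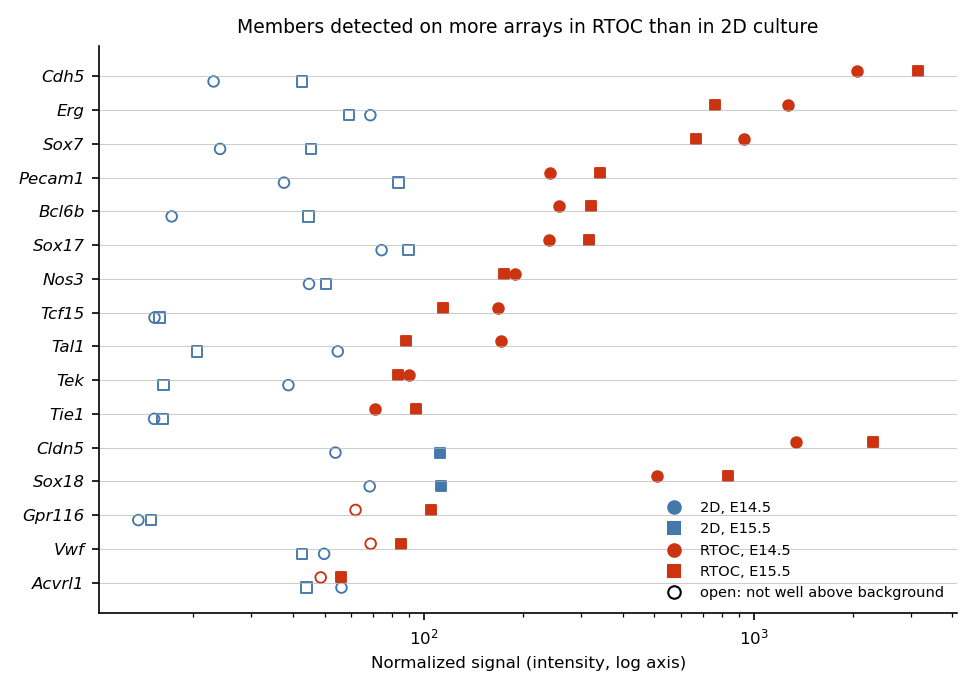
Normalized signal (intensity, log axis) of the 16 members detected on more arrays in RTOC than in 2D culture, 1 row per gene. Blue symbols are 2D culture and red symbols RTOC, circles E14.5 and squares E15.5, and open symbols were not well above background. In the 11 upper rows both RTOC symbols are filled and both 2D symbols open, with RTOC to the right of 2D culture in each.

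Among the 28 members measured in all 4 channels, 13 were higher in RTOC (46.4%) where 12.5% of all such genes were, and 1 was lower (3.57%) where 12.2% were. The median log2 ratio of these 28 was 1.24, and that of the 12074 genes measured in all 4 channels was −0.03. Both RTOC signals lay above both 2D signals for 19 of them (31.1% of all such genes) and below for 5 (33.6%). Of the 14 other members tested 13 were higher, where 40.2% of all such genes were higher and 16.6% lower, which brings the calls to 26 higher and 1 lower of 42 tested. The 13 are no support for a difference, since a gene tested through its RTOC signal alone had to differ, and 71.6% of all genes detected in RTOC only were called higher. The 15 of the 28 that are known mainly from endothelium had a median of 1.42, with 7 higher, and the 13 that other cells also make had a median of 0.97, with 6 higher and 1 lower.

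**Figure D2:**
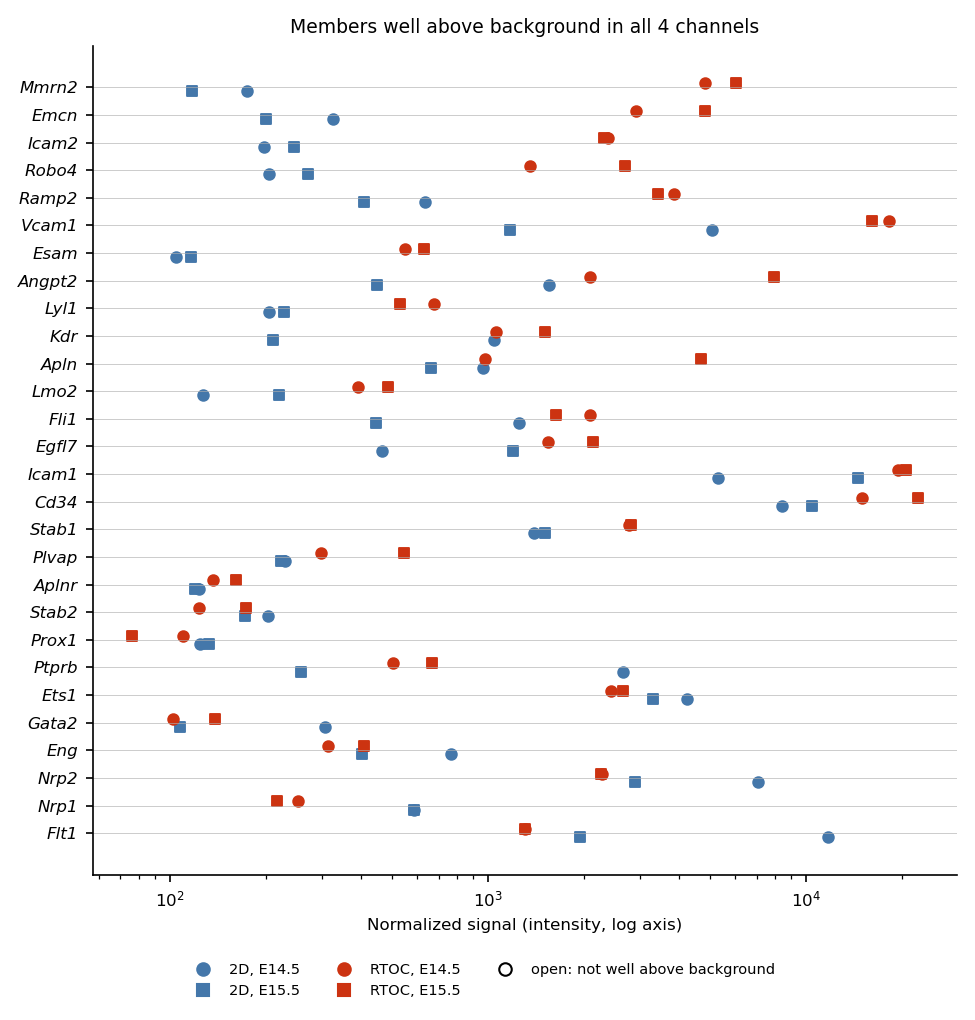
Normalized signal (intensity, log axis) of the 28 members well above background in all 4 channels, ordered by mean log2 ratio of RTOC over 2D culture. Blue symbols are 2D culture and red symbols RTOC, circles E14.5 and squares E15.5. From Mmrn2 to Esam both red symbols lie to the right of both blue ones, and for Flt1, Nrp1 and Nrp2 both lie to the left.

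Genes of endothelial junctions and surface were mostly higher in RTOC, with 4 of the 5 measured in all channels passing the test (Emcn, Icam2, Esam and Cd34) and the other 3 of the group dim in 2D culture. The 2 signals of Emcn, whose promoter is shown with 2 AGGAAG matches, in RTOC stood 14.6-fold over those in 2D culture (log2 3.87 ± 0.999, SD, n = 2, limma adjusted p = 0.00295). Icam2, a ligand for leukocyte integrins held at endothelial junctions, read 197 and 245 in 2D culture and 2379 and 2320 in RTOC. It was 10.7-fold higher (log2 3.42 ± 0.25, limma adjusted p = 0.00179), and the cultures did not overlap. Esam, an immunoglobulin-family protein of tight junctions, read 104 and 116 in 2D culture and 548 and 628 in RTOC (5.32-fold, limma adjusted p = 0.00312). These folds depend on how background is corrected. After normexp background correction with loess the log2 ratio was 0.94 for Esam in place of 2.41. For Emcn it was 2.53 in place of 3.87.

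Cd34, the sialomucin also known from blood progenitors and fibroblasts, was bright in both cultures, at 8392 and 10444 in 2D culture and 15037 and 22465 in RTOC. Its 1.96-fold increase had a limma adjusted p of 0.0408, which rose above 0.05 without the pairing of the 2 dyes on an array and with a trended, robust prior. Cldn5, which seals endothelial tight junctions, read 53.9 and 112 in 2D culture and 1340 and 2294 in RTOC. The lower of its 2D signals was not detected, so a measured ratio stands for the E15.5 array alone (log2 4.36), and the limma adjusted p of 0.00159 takes the dim signal at its value. Cdh5 was at least 5.01-fold higher in RTOC and Pecam1 at least 1.42-fold, with limma adjusted p of 0.00159 and 0.00457. After normexp with an offset, a bound sets the RTOC signal against the higher, on each array, of the probe's own dim 2D signal and the lowest signal still well above background. For Pecam1, Erg, Sox17 and Nos3 the own 2D signal was the higher on both arrays, so that their bound is the ratio after normexp, loess and Aquantile. The p-values of members detected in RTOC only stand beside their bounds as a description, since such genes passed the filter through RTOC. A second Cdh5 probe gave 347 and 637 in RTOC and at least 1.73-fold. The junctional phosphatase gene Ptprb, the one gene of the group that did not pass, went opposite ways on the 2 arrays and is described with the differences between arrays.

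Of the 4 tested genes of VEGF receptors and co-receptors, all measured in all channels, 1 was lower in RTOC and 3 were not called. Kdr, the main signalling receptor, read 1043 in 2D culture and 1063 in RTOC of E14.5 cells, and 211 and 1515 of E15.5 cells (log2 1.43 ± 1.99, limma adjusted p = 0.151). Flt1, a receptor that binds VEGF but signals weakly, was lower in RTOC on both arrays, at 11707 in 2D culture and 1308 in RTOC of E14.5 cells and at 1952 and 1306 of E15.5 cells. Its mean log2 ratio of −1.87 ± 1.83 had a limma adjusted p of 0.0693. Of its other 2 tested probes one passed (−1.54, limma adjusted p = 0.0422) and one did not (−1.53, limma adjusted p = 0.0670).

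Nrp1, a co-receptor for VEGF and semaphorins that many stromal cells carry, was the member that fell in RTOC. It read 586 and 588 in 2D culture and 254 and 218 in RTOC, 2.50-fold lower (log2 −1.32 ± 0.16, limma adjusted p = 0.0174), and its other 2 probes gave −1.53 and −1.65. Nrp2, the co-receptor more tied to lymphatic and venous cells, read 7055 and 2902 in 2D culture and 2288 and 2267 in RTOC (log2 −0.99 ± 0.90, limma adjusted p = 0.0975). Flt4, the receptor of the lymphatic growth factor VEGF-C, was not tested. It read 95.1 and 29.0 in 2D culture and RTOC of E14.5 cells, neither well above background, and 290 and 87.0 of E15.5 cells. For Flt1, Nrp1 and Nrp2 both RTOC signals lay below both 2D signals, and for Kdr both lay above them, by little on the E14.5 array.

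The angiopoietin receptor genes were dim. Tek, the gene of the receptor TIE2, read 90.0 and 83.5 in RTOC, at least 1.10-fold over 2D culture (limma adjusted p = 0.0183), on the 1 of its 2 probes that was tested. Its brighter probe was not tested and read 96.2 and 79.3 in 2D culture and 58.8 and 57.5 in RTOC, the opposite order. Tie1, the partner of TIE2, read 71.2 and 94.4 in RTOC and was at least 1.12-fold higher (limma adjusted p = 0.00354). Angpt2, the TIE2 ligand that endothelial cells release, read 1557 and 447 in 2D culture and 2088 and 7964 in RTOC (log2 2.29 ± 2.64, limma adjusted p = 0.0928).

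The 2 receptors of the BMP9 pathway gave no call. Eng, the gene of endoglin, read 764 and 402 in 2D culture and 314 and 409 in RTOC (log2 −0.63 ± 0.93, limma adjusted p = 0.252). Acvrl1, the gene of the kinase ALK1, read 56.3 and 44.0 in 2D culture and 48.7 and 56.2 in RTOC, of which the last alone was well above background, and was not tested.

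Of the 6 genes of guidance and G protein coupled signalling, 3 were higher in RTOC, all measured in all channels. Robo4, the endothelial member of the Roundabout receptors and with 1 AGGAAG match in the promoter shown, rose from 204 and 273 in 2D culture to 1358 and 2694 in RTOC (8.10-fold, log2 3.02 ± 0.40, limma adjusted p = 0.00246). Ramp2, the partner of the adrenomedullin receptor, rose from 636 and 407 to 3855 and 3432 (7.15-fold, log2 2.84 ± 0.34, limma adjusted p = 0.00261). Egfl7, a secreted protein of angiogenic endothelium, rose from 466 and 1197 to 1543 and 2146 (2.44-fold, log2 1.28 ± 0.63, limma adjusted p = 0.0333). In each of these 3 both RTOC signals lay above both 2D signals.

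Apln and its receptor gene Aplnr, which guide sprouting and vessel calibre, did not pass. Apln read 965 and 664 in 2D culture and 977 and 4681 in RTOC (log2 1.42 ± 1.98, limma adjusted p = 0.153). Aplnr was dim, at 124 and 120 in 2D culture and 137 and 161 in RTOC (limma adjusted p = 0.436). Gpr116, an adhesion G protein coupled receptor now named Adgrf5, read 13.6 and 14.9 in 2D culture and 62.1 and 105 in RTOC, of which the last alone was well above background, and was not tested.

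All 5 SoxF and related transcription factor genes were detected in RTOC on both arrays, and 4 of them in RTOC only. Sox7 read 936 and 666 in RTOC and 24.1 and 45.5 in 2D culture, at least 2.49-fold higher (limma adjusted p = 0.00226). Sox18, which acts in endothelial and lymphatic specification, read 508 and 838 in RTOC and 68.5 and 113 in 2D culture. The E14.5 signal in 2D culture was not detected, so a measured ratio stands for the E15.5 array alone (log2 2.89). The limma adjusted p of 0.00226 takes the dim signal at its value. Sox17, linked to arterial identity, read 240 and 317 in RTOC and was at least 1.3-fold higher (limma adjusted p = 0.00726), and a second probe gave 339 and 472 and at least 1.74-fold. Bcl6b, a zinc finger repressor, read 257 and 321 in RTOC and 17.2 and 44.7 in 2D culture (at least 1.49-fold, limma adjusted p = 0.00289). Tcf15, a basic helix-loop-helix factor, read 168 and 114 in RTOC and 15.3 and 15.8 in 2D culture (at least 1.27-fold, limma adjusted p = 0.00236). A bound follows the brightness of its probe in RTOC, so bounds are not ranked between genes.

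Of the 3 ETS genes Erg and Fli1 were called higher, and Ets1 was not called. Erg, the ETS factor most confined to endothelium, read 1269 and 763 in RTOC and 68.8 and 59.3 in 2D culture, at least 3.1-fold higher (limma adjusted p = 0.00166). A second Erg probe was detected in neither culture, with signals from 13.7 to 27.3. Fli1, shared with blood cells, was detected in all channels, at 1256 and 446 in 2D culture and 2097 and 1634 in RTOC (2.47-fold, limma adjusted p = 0.0420), and its second probe did not pass (log2 0.79, limma adjusted p = 0.129). Ets1, also made by lymphoid and stromal cells, read 4243 and 3304 in 2D culture and 2434 and 2669 in RTOC (log2 −0.55 ± 0.35, limma adjusted p = 0.176). The brightest Ets1 probe was used for this value. Of its 3 others, a probe detected in all channels was called lower (−1.50, limma adjusted p = 0.0274), one was not (−1.04, limma adjusted p = 0.0705), and one detected in 2D culture only was at least 1.28-fold lower in RTOC (limma adjusted p = 0.00222).

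Among the factors that blood and endothelial cells share, Lyl1 rose from 205 and 228 in 2D culture to 677 and 528 in RTOC (2.76-fold, limma adjusted p = 0.0158). Lmo2, an adaptor that bridges TAL1 and GATA factors, rose from 128 and 221 to 391 and 484 (2.59-fold, limma adjusted p = 0.0185). Tal1 itself read 171 and 88.2 in RTOC and was dim in 2D culture, at 54.8 and 20.6, at least 1.16-fold higher (limma adjusted p = 0.00730). Gata2 read 307 and 107 in 2D culture and 103 and 139 in RTOC (limma adjusted p = 0.385), so its cultures overlapped and its ratio had opposite signs on the arrays.

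Of the secreted and fenestral genes, Mmrn2 had the largest ratio of the 28 members measured in all channels. It encodes multimerin 2, an endothelial matrix protein that lies against the vessel wall, and read 176 and 117 in 2D culture and 4809 and 6043 in RTOC. The increase was 37.5-fold (log2 5.23 ± 0.64, limma adjusted p = 0.00159). Plvap, which forms the diaphragms of fenestrae, read 231 and 223 in 2D culture and 298 and 543 in RTOC (log2 0.82 ± 0.65, limma adjusted p = 0.106). Nos3, the endothelial nitric oxide synthase, read 189 and 174 in RTOC and was dim in 2D culture, at 44.9 and 50.5 (at least 1.26-fold, limma adjusted p = 0.00594). Vwf, von Willebrand factor, read 69.0 and 85.5 in RTOC, the second alone well above background. Mmrn1, a multimerin of platelets and lymphatic endothelium, was detected in neither culture.

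Leukocyte adhesion genes were split. Vcam1, which binds the integrin VLA-4, rose from 5065 and 1174 in 2D culture to 18230 and 16139 in RTOC (7.03-fold, log2 2.81 ± 1.37, limma adjusted p = 0.0124), and its second tested probe gave 1.41. Icam1, the ligand of LFA-1, read 5307 and 14565 in 2D culture and 19467 and 20615 in RTOC (log2 1.19 ± 0.97, limma adjusted p = 0.0699). Both RTOC signals lay above both 2D signals, but a second Icam1 probe read lower in RTOC on the E15.5 array (log2 1.31 and −0.19). The selectins were at or below the detection mark. Selp read 84.5 and 111 in 2D culture and 70.0 and 108 in RTOC (limma adjusted p = 0.669), and Sele read 31.8 and 16.2 in 2D culture and 61.6 and 19.3 in RTOC, never well above background.

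Lymphatic and sinusoidal genes gave 1 call, on a gene whose probes disagreed. Stab1, a scavenger receptor of sinusoids and macrophages, read 1402 and 1508 in 2D culture and 2772 and 2812 in RTOC (1.92-fold, limma adjusted p = 0.0420). A second probe ran the other way, with a log2 ratio of −0.49 (limma adjusted p = 0.199), the only sign difference among the 12 members with over 1 tested probe. Stab2 read 203 and 173 in 2D culture and 124 and 174 in RTOC (limma adjusted p = 0.402). Prox1, the lymphatic master factor, also known from other epithelia, read 124 and 133 in 2D culture and 110 and 76.1 in RTOC (limma adjusted p = 0.241). Lyve1, the hyaluronan receptor of lymphatic endothelium and some macrophages, was not detected, with signals from 12.3 to 56.7.

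**Figure D3:**
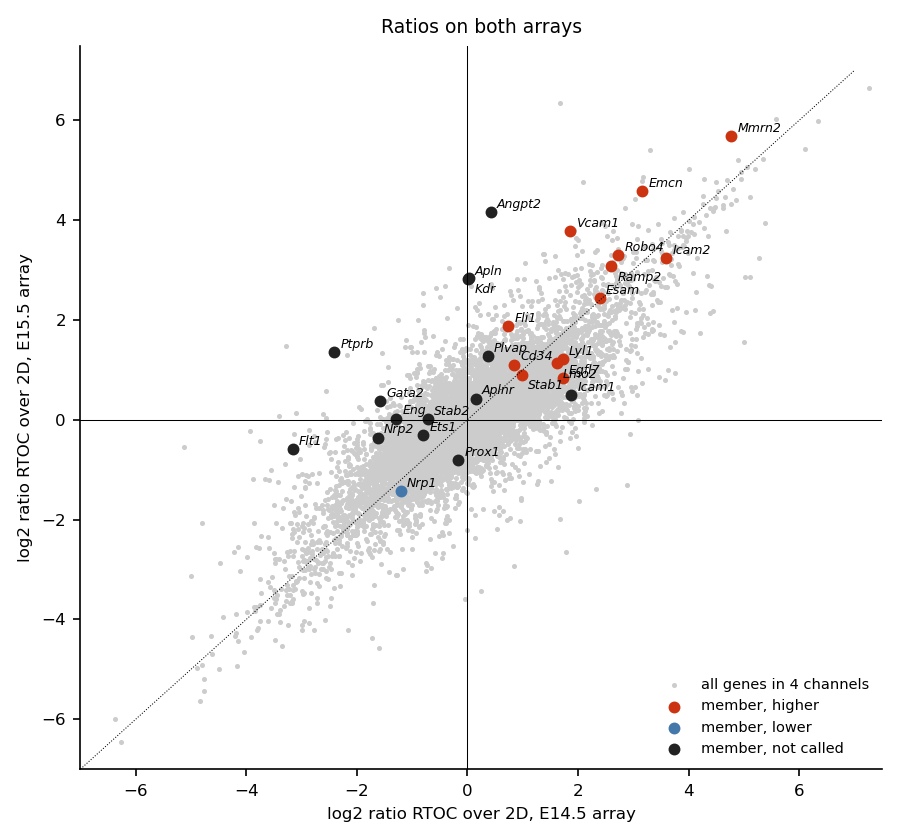
Log2 ratio of RTOC over 2D culture on the E14.5 array (x axis) and the E15.5 array (y axis). Grey points are the 12074 genes measured in all 4 channels, coloured points the 28 members (red higher, blue lower, black not called), and the dotted line marks equal ratios. Angpt2, Kdr, Apln, Ptprb and Flt1 lie more than 2 above the dotted line.

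The ratio differed by more than 2 on the log2 scale between the arrays for 5 of the 28 members, and for 1.41% of all genes measured in all 4 channels. These were Ptprb, Angpt2, Kdr, Apln and Flt1, and in all 5 the ratio was the higher on the E15.5 array, which held for 0.621% of all genes. With 1 array a stage no difference between stages was tested. The 5 genes did not reach this in the same way. In 2D culture the E14.5 signal was at least 4-fold over the E15.5 signal for 4 members, Ptprb (10.3-fold), Flt1 (6.00-fold), Kdr (4.94-fold) and Vcam1 (4.31-fold), against 0.903% of all genes. The reverse was seen for 0 members and 0.986% of all genes. In RTOC the same genes lay close together on the arrays, such as Flt1 at 1308 and 1306.

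Apln differed in RTOC instead. It was the member whose RTOC signal was at least 4-fold higher on the E15.5 array (4.79-fold, against 0.199% of all genes), while 0 members and 0.182% of all genes showed the reverse. Its second probe gave log2 ratios of −0.12 and 4.23. Angpt2 moved in both cultures, 3.48-fold higher in 2D culture of E14.5 cells and 3.81-fold higher in RTOC of E15.5 cells. Ptprb changed sign, from a log2 ratio of −2.41 on the E14.5 array to 1.36 on the E15.5 array. Its RTOC signals of 502 and 667 lay between its 2D signals of 2661 and 259. Opposite signs were found for 4 of the 28 members, Ptprb, Gata2, Eng and Stab2, and for 20.5% of all genes.

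**Figure D4:**
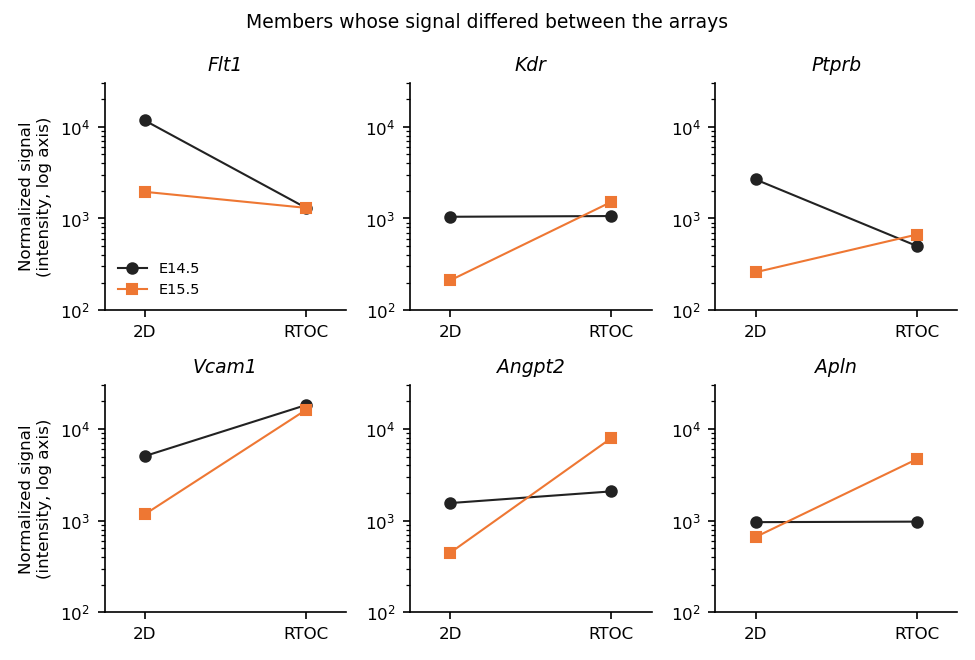
Normalized signal (intensity, log axis) of 6 members in 2D culture and RTOC, with lines joining the channels of an array (black circles E14.5, orange squares E15.5). Flt1, Kdr, Ptprb and Vcam1 differ between the arrays mainly in 2D culture, Apln in RTOC and Angpt2 in both.

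A list of 48 further endothelial genes, none of them a member, did not move as one. Of its 32 genes measured in all 4 channels 11 were higher in RTOC (34.4%) and 10 lower (31.25%), with a median log2 ratio of −0.20. Of all such genes 12.5% were higher and 12.2% lower. The largest changes were of Fabp4, a fatty acid carrier of capillaries and fat cells (4.35), Sparcl1, a matrix protein (3.94), Cav1, the main protein of caveolae (−3.35), and Calcrl, the receptor that pairs with RAMP2 (3.18). A further 5 of the 48 were detected in RTOC only (10.4%, against 3.16% of all genes), namely Myct1, Ushbp1, Ccm2l, Grrp1 and Pcdh12.

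Of 16 ligands of the vascular receptors on the array, 11 were measured in all channels, and 2 of these were higher and 2 lower in RTOC. Each is a share of 18.2%, where 12.5% of all such genes were higher and 12.2% lower. Cxcl12, the chemokine of CXCR4, had a log2 ratio of 3.43 and Vegfb, a ligand of FLT1, of 1.07. Vegfc, the ligand of FLT4, had −1.71 and Tgfb1 −1.09. In the list of Notch and ephrin genes, which set arterial and venous fate, all 12 were measured in all channels. Of these 6 were higher (50%), the other 6 not being called. The largest were Hey1 (5.76), Dll4 (3.40), Notch4 (3.22) and Hey2 (2.37). Dll4 and Notch4 are the ligand and receptor best known from arterial endothelium, and Hey1 and Hey2 are targets of Notch signalling in many cells. The paper also names DLL4 among the molecules of thymic epithelial cells that are reduced without Foxn1. It further reports that Hey1 behaved like Psmb11 in these cultures. Which cells the RNA of these genes came from was not tested.

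Markers of other cells moved beside the members. For the counts here and in the next paragraph, 12.5% of all genes measured in all 4 channels were higher and 12.2% lower. The 11 thymic epithelial genes had 8 higher in RTOC and a median of 3.08 (Foxn1 2.65, Psmb11 3.90, Ccl25 6.95), and their summed signal was 306784 and 628957 in 2D culture and 1384070 and 1382380 in RTOC. Of 11 macrophage genes 6 were higher, with summed signals of 85500 and 75313 in 2D culture and 199177 and 255803 in RTOC (Adgre1 3.01, Csf1r 1.10, Cd68 0.61, the last not called), while Spi1 was detected in neither culture. The macrophage sums were mostly Lyz2, at 58016 and 48100 in 2D culture and 123618 and 167883 in RTOC. Of 7 leukocyte genes measured in all channels 3 were higher, with sums over the list of 10 of 5516 and 6862 in 2D culture and 23061 and 15092 in RTOC. Their defining gene Ptprc had a log2 ratio of 1.88, and Cd3e one of −0.08 that was not called. Cd3g was detected in RTOC on both arrays (1493 and 195) and in 2D culture on the E14.5 array alone, where its log2 ratio was 4.11. These lists moved beside Stab1, Lyl1, Lmo2, Tal1, Fli1 and Cd34, which blood cells also make, and their part in those results was not tested.

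Of 11 mural genes, which mark the cells that wrap vessels, 3 were higher and 5 lower (Pdgfrb −1.22, Rgs5 3.25, Cspg4 −2.67), with sums of 627574 and 583521 in 2D culture and 123297 and 99907 in RTOC. The mural sums in 2D culture were mostly Acta2 (277462 and 253015) and Tagln (261905 and 226521), so they do not stand for the list as a whole. Of 8 mesenchymal genes 4 were higher and 3 lower (Pdgfra 2.84, Col1a1 −2.16, Col1a2 −1.22), with sums of 386077 and 306900 and of 260512 and 283266. These moved beside Nrp1 and Nrp2, and their part was not tested. The megakaryocyte genes Itga2b, Gp1ba, Gp9 and Gp6 were detected in no channel, whereas the platelet chemokine genes Pf4 and Ppbp were lower in RTOC (−3.15 and −6.36). Of the erythroid genes, Epor (1.45) and Hba-a1 (1.10) were higher, and Klf1 was detected in neither culture.

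**Figure D5:**
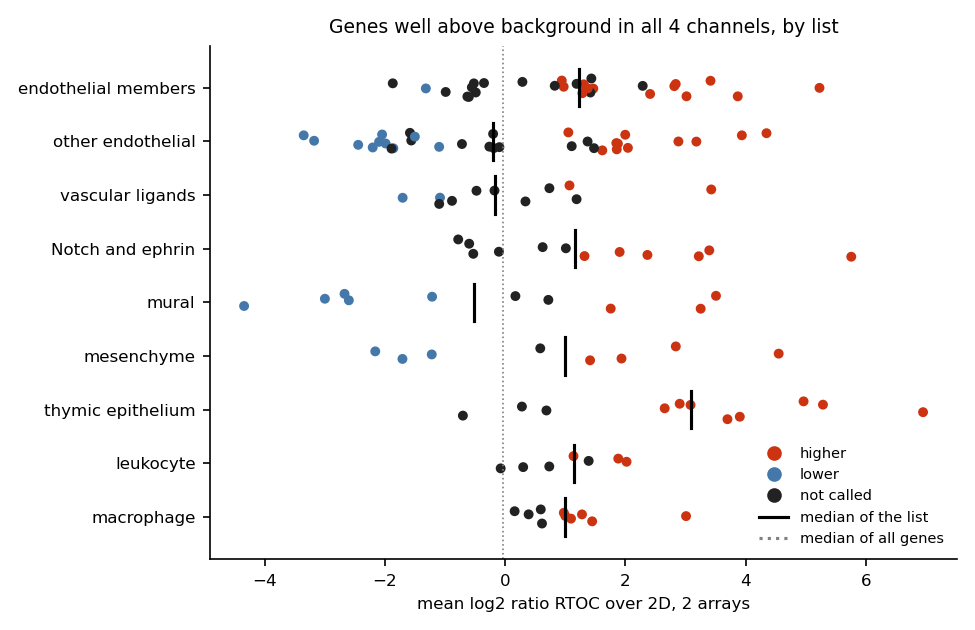
Mean log2 ratio of RTOC over 2D culture on the 2 arrays (x axis) for the genes of each list that were measured in all 4 channels, 1 point a gene (red higher, blue lower, black not called). Black bars are list medians and the dotted line is the median of all 12074 genes (−0.03). The bar of the endothelial members lies at 1.24 and that of the other endothelial genes at −0.20.

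All calls rest on 2 arrays. Each of the 27 called members kept its sign on either array alone and under every other scaling and filter run. That is no separate support, since a call from 2 ratios nearly requires like signs and the settings reuse the same arrays. No member was called with dim probes left in or by the methods' t-test. The size of the ratios depended on the setting too. The lowest log2 ratio over all settings was 3.36 for Mmrn2, 2.22 for Icam2 and 0.94 for Esam. In the main setting these were 5.23, 3.42 and 2.41. Of the 26 called higher, 15 passed after normexp background correction with loess, which lost Bcl6b, Fli1, Lmo2, Lyl1, Nos3, Pecam1, Sox17, Tal1, Tcf15, Tek and Tie1. Without the pairing of channels within an array the calls of Cd34, Egfl7, Fli1, Lmo2, Stab1, Tal1 and Tek were lost, and with a trended, robust prior those of Cd34, Egfl7, Fli1 and Stab1.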

How the data were processed

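RNA of each culture was labelled, RTOC with Cy5 and 2D culture with Cy3, and hybridized to 2 arrays of 1 slide. Per the file headers, Feature Extraction produced for each spot a mean signal, a local background and a processed signal, all deposited as intensity values, the last corrected for background and for the dyes of that array. The submitters' notes name version 11.5.1.1 and the file headers 9.1.3.1. The deposited log10 ratios of the series table were used only for the alternative without quantile normalization. The ratios in the scanner files and the p-values of single arrays were not used. The labels name TRIzol for RNA extraction and the methods a column kit, which was left unresolved.

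The methods state quantile normalization over all arrays, which was applied here to log2 processed signals of the 4 channels (R 4.3.3, limma 3.58.1). Control spots and outlier spots (5 at E14.5, 1 at E15.5) were left out, spots of a probe were averaged, and the test took every probe that rose well above background in 1 or more channels of both arrays. The 2 log2 ratios were tested against 0 with lmFit and eBayes, two-sided. Of 41174 probes, 22951 were named by accession, 6659 by symbol and 3109 by an older symbol, and 8455 kept the name in the file. The brightest tested probe stands for a gene. Bounds for dim channels came from normexp (offset 50), loess and Aquantile. The fit was tested on simulated data.

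All 49 members are named, with other tested probes where sign or call differ. Several members, such as Sox17 and Kdr, also have probes detected in neither culture, most of which are not described. Of other lists, the 4 or fewer called genes of largest ratio are named and, for other cell types, the first 3 genes, of which 1 erythroid gene is not reported here. Members and lists were chosen with earlier results of these data known. The alternatives were normexp with loess, Aquantile or median centring, median centring or no quantile normalization of the processed signals, other filters on dim probes, outlier spots kept, the median over probes, a trended robust prior, no replicate block, the methods' t-test, a looser detection flag and either array alone. The number of arrays and the signal over background limit the precision.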

Additional observations from a re-analysis of the deposited data

Results flagged for a closer look

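Ptprb, the gene of the junctional phosphatase VE-PTP, changed by at least 2-fold in opposite directions in the experiments. On a log2 scale E14.5 cells gave −2.41, lower in RTOC, whereas E15.5 cells gave 1.36, higher in RTOC. The difference was not tested, since each stage has 1 array, and the value rests on 1 of the 4 Ptprb probes, the other 3 being detected in neither culture.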

How the results depend on the processing

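The 2 arrays leave 1 residual degree of freedom. Of the log2 ratios of single members under the alternatives that had a test, 379 kept direction and side of the threshold, 105 lost the call, 4 gained one and 2 that were never called changed sign, Selp (0.037) and Stab2 (0.053) after normexp with median centring, which moved the median of all probes to 0.12. With either array alone there is a value for each of the tested members but no test and no count, and on the E15.5 array the sign differed from the mean of both for 4 members that were not called, Eng (0.025), Gata2 (0.37), Ptprb (1.36) and Stab2 (0.0076). The cause of the changes was not tested.

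Members higher in RTOC among those measured in all channels numbered 13, and 8 without the pairing of channels within an array (no replicate block), 8 after normexp with median centring, 0 with no filter on dim probes (10 at an unadjusted p under 0.05) and 0 by the methods' t-test (3 unadjusted). Over all tested members the 26 became 14 with all 4 channels required, which tests fewer genes, 15 after normexp with loess, with or without Aquantile, 13 after normexp with median centring, 0 with no filter (22 unadjusted) and 0 by the t-test (10 unadjusted). The 1 lower member became 2 with all 4 channels required, with the median over probes and without quantile normalization, and 0 after normexp with loess or Aquantile (2 unadjusted), after normexp with median centring (1 unadjusted), with no filter (1 unadjusted) and by the t-test (0 unadjusted), the same over all tested members.

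Other endothelial genes higher numbered 11 in all channels and 16 over all tested. They became 0 with no filter (11 and 15 unadjusted) and 0 by the t-test (4 and 6 unadjusted), and the 16 became 10 after normexp with loess, Aquantile or median centring. The 10 lower ones became 5 with no replicate block, 4 after normexp with loess, Aquantile or median centring, 0 with no filter (9 unadjusted) and 0 by the t-test (0 unadjusted), in all channels and over all tested alike. By the flag positive and significant, 3 members were detected in RTOC only in place of 11, and 0 in neither culture in place of 3. These counts by the looser flag stand without the share of all genes. Over all probes the calls numbered 6831, and 4033 with no replicate block, 3709 after normexp with loess, 2904 after normexp with median centring, 0 with no filter (10666 unadjusted) and 0 by the t-test (3538 unadjusted).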
